A study of Mus musculus with 2 samples.

Results

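The monocytes without Arg1 in the mouse thymus were 358 cells, 260 from Mgl2DTR mice and 98 from WT mice, among 19019 cells with a single genotype hashtag and 28926 cells in all. They were chosen from their raw transcript counts (UMIs, unique molecular identifiers). A member held at least 3 UMIs of F13a1, Vcan and Fn1 summed and no Arg1. It held at most 2 UMIs of the C1q genes summed (C1qa, C1qb, C1qc) and no Cxcr2, the receptor of neutrophils. It also held at most 1 UMI of each of 4 gene groups of other cells: Xcr1 with Clec9a, Ccr7 with Fscn1, Siglech, and the Cd3 chains. The choice therefore rests on these genes, and their levels are given below as a description only.

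The Mgl2DTR mice carried Mgl2DTR_eGFP, in which cells that express Mgl2 make a fluorescent protein and a receptor for diphtheria toxin, so that the toxin can kill them. They had received 500 ng of the toxin 48 h earlier. The WT mice, tagged B6WT, were wild type. Whether WT mice also received toxin is not clear from the labels. All mice were 7 weeks old. Thymus tissue was digested with collagenase D at 1 mg/ml, cells bearing CD90.2 were depleted, and live cells bearing CD11c or CD11b were sorted. The pooled genotypes went through the 10x 3′ kit together, so each genotype is 1 sample, and no separate animals are named. There is no replicate check and no test between genotypes. Every interval is an exact 95% interval that covers counting error only.

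Monocytes leave the bone marrow through the blood and enter tissues by following chemokines, chiefly the ligands of the receptor Ccr2. Classical mouse monocytes carry Ly6C, sense microbes and dying cells through CD14 and C-type lectins, and can become macrophages or antigen-presenting cells. Arg1, arginase 1, marks one state that monocytes and macrophages can take. In the thymus, macrophages and monocytes clear dying thymocytes, while dendritic cells that carry CD301b, the product of Mgl2, present antigen.

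The genotype of each cell comes from its hashtag, an antibody barcode read beside its transcripts, so the barcodes that carry every comparison are printed here, with all letters in capitals because the whole barcode is the label.
Mgl2DTR: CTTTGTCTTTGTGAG
B6WT: AAAGCATTCTTCACG
uncategorized: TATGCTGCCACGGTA
The third barcode is uncategorized in the deposited feature list and has another name in the hashtag tables, and no cell is called for it alone. Members carried a median of 524 Mgl2DTR and 21.5 WT hashtag UMIs in Mgl2DTR, against 17 Mgl2DTR and 429 WT hashtag UMIs in WT. The margin between the strongest and second hashtag, a score on a normalized scale, had a median of 1.77 in Mgl2DTR members and 1.08 in WT members. Other single-hashtag cells had median margins of 2.57 in Mgl2DTR and 2.04 in WT. The members' genotype calls were therefore less widely separated than those of other cells, most of all in WT.

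Members were deeper in Mgl2DTR, with a median of 9307 UMIs and 2585.5 genes per cell, against 6415 UMIs and 2061 genes in WT. Their summed UMIs were 2759730 in Mgl2DTR and 828524 in WT. The median mitochondrial share was 1.91% in Mgl2DTR and 1.81% in WT. Levels below are CPM, the UMIs of a gene divided by the summed UMIs of the same cells and scaled to 1000000. No cell barcode was shared between the 2 deposited gene tables.

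Members made up 3.50% of the 7433 single-hashtag cells of Mgl2DTR (interval 3.09 to 3.94%), against 0.846% of the 11586 of WT (0.687 to 1.03%). The ratio of these shares was 4.14 (3.27 to 5.27). Cells that met every other condition but held Arg1 numbered 54 in Mgl2DTR and 1 in WT. Arg1 was thus found in 17.2% of 314 such monocytes in Mgl2DTR, against 1.01% of 99 in WT. Macrophages with at least 10 C1q UMIs, chosen without the marker sum, lay the other way: they were 3.12% of Mgl2DTR cells and 3.68% of WT cells, a ratio of 0.849 (0.720 to 0.998). A share of sorted cells can move because members or other sorted cells changed in number, and these cannot be told apart. The rule also counts Vcan, which held a UMI in 80.8% of Mgl2DTR members and 30.6% of WT members. Vcan was the only rule gene found in 8 Mgl2DTR members and 0 WT members. A marker sum below 3 was not run, and the part of the rule in the ratio of shares was not tested. The ratio was 10.5 without the 25% of each genotype's cells with the smallest hashtag margin, which leaves 54 Mgl2DTR and 8 WT members.

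The label monocyte was checked against markers. Of the rule's own genes, F13a1, the clotting factor XIII chain of monocytes, was at 523 CPM in Mgl2DTR and 505 CPM in WT. Fn1, fibronectin, was at 629 CPM in Mgl2DTR and 690 CPM in WT. Vcan, the matrix proteoglycan versican, was at 439 CPM in Mgl2DTR and 111 CPM in WT, and held a UMI in 80.8% of Mgl2DTR members and 30.6% of WT members. All 3 genes were found together in 66.5% of Mgl2DTR members and 21.4% of WT members. The 98 WT members were thus chosen mostly by F13a1 and Fn1.

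The 3 markers outside the rule were also present. Ly6c2, which encodes Ly6C, was at 1788 CPM in Mgl2DTR members and 1343 CPM in WT members, a ratio of 1.33 (1.25 to 1.42) that is short of the 1.5 used below. It depended on which members were kept: the ratio was 2.36 (2.12 to 2.65) among members outside the cell cycle and 0.767 (0.698 to 0.843) among cycling members. Without the smallest hashtag margins, the log2 ratio was 3.36. Ccr2, the receptor for monocyte entry, was at 840 CPM in Mgl2DTR and 777 CPM in WT. This was 8.77 times the level of the other cells in Mgl2DTR and 8.47 times in WT, with 10 CPM added to each level. Clec4a3, a C-type lectin receptor of monocytes, was at 374 CPM in Mgl2DTR and 307 CPM in WT. At least 1 UMI of these 3 genes was found in 259 of 260 Mgl2DTR members and 95 of 98 WT members. Among the 15 genes that set the members apart most from other cells of both genotypes were Lyz2 (lysozyme), Ifitm3 (a membrane protein that restricts viruses), Hp (haptoglobin), Cebpb (a myeloid transcription factor) and Csf1r (the receptor for colony-stimulating factor 1).

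The lists of T, B, NK and dendritic cells summed below their level in the other single-hashtag cells in both genotypes. Those of neutrophils and stroma did so in Mgl2DTR only, and that of tissue macrophages in neither. The T cell list summed to 26.8 CPM in Mgl2DTR members and 26.6 CPM in WT members, against 532 CPM in the other cells of Mgl2DTR and 1019 CPM in those of WT. The B cell list summed to 124 CPM in Mgl2DTR and 162 CPM in WT, with Ighm giving 91.3% of it in Mgl2DTR and 88.1% in WT. The neutrophil list summed to 11166 CPM in Mgl2DTR and 11737 CPM in WT, and S100a8, which monocytes also express, gave 57.0% of it in Mgl2DTR and 49.2% in WT. The other cells held this list at 31307 CPM in Mgl2DTR and 10126 CPM in WT. The tissue macrophage list summed to 1095 CPM in Mgl2DTR and 1147 CPM in WT, against 940 CPM and 1141 CPM in the other cells. The stroma list summed to 26.5 CPM in Mgl2DTR and 135 CPM in WT, against 79.4 CPM and 81.2 CPM in the other cells. The list of monocyte-derived and type 2 dendritic cells summed to 2081 CPM in Mgl2DTR and 4819 CPM in WT, mostly from Cd74. At least 5 UMIs of Mpo, Elane, Prtn3 and Ctsg, granule genes of myeloid progenitors, were held by 19 Mgl2DTR and 11 WT members. At the edge of the rule, a marker sum of exactly 3 was held by 15 Mgl2DTR and 16 WT members, and 25 Mgl2DTR and 37 WT cells with a sum of 2 were left out. Ly6c2 was at 981 CPM just inside and 481 CPM just outside in Mgl2DTR, and at 1114 CPM inside and 1044 CPM outside in WT.

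Between the genotypes, 6185 genes had at least 50 summed counts in the members. Since no test was possible, genes were sorted by the size of the ratio of Mgl2DTR over WT: it had to reach 1.5 in one direction, and its interval had to leave out 1. By this rule 332 genes were higher in Mgl2DTR members, 5.37% of the measured genes, and 486 were lower, 7.86%. The median log2 ratio over all measured genes was 0.01. Of these calls, 23 higher and 52 lower genes took at least 20% of their counts in the higher genotype from 1 cell. Without the cells of the smallest hashtag margins, where 8 WT members remain, Ccl2, Cxcl2, Ccr1, Cd14, Clec4e and H2-Aa kept their calls, while Ccl3, Cxcl10, Apoe, Irf8, Eps8 and the cell cycle list turned to the other direction. Of the 332 higher and 486 lower genes, 69 and 26 kept their call without those cells. The part of mixed genotype calls in these results was not tested.

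**Figure D1:**
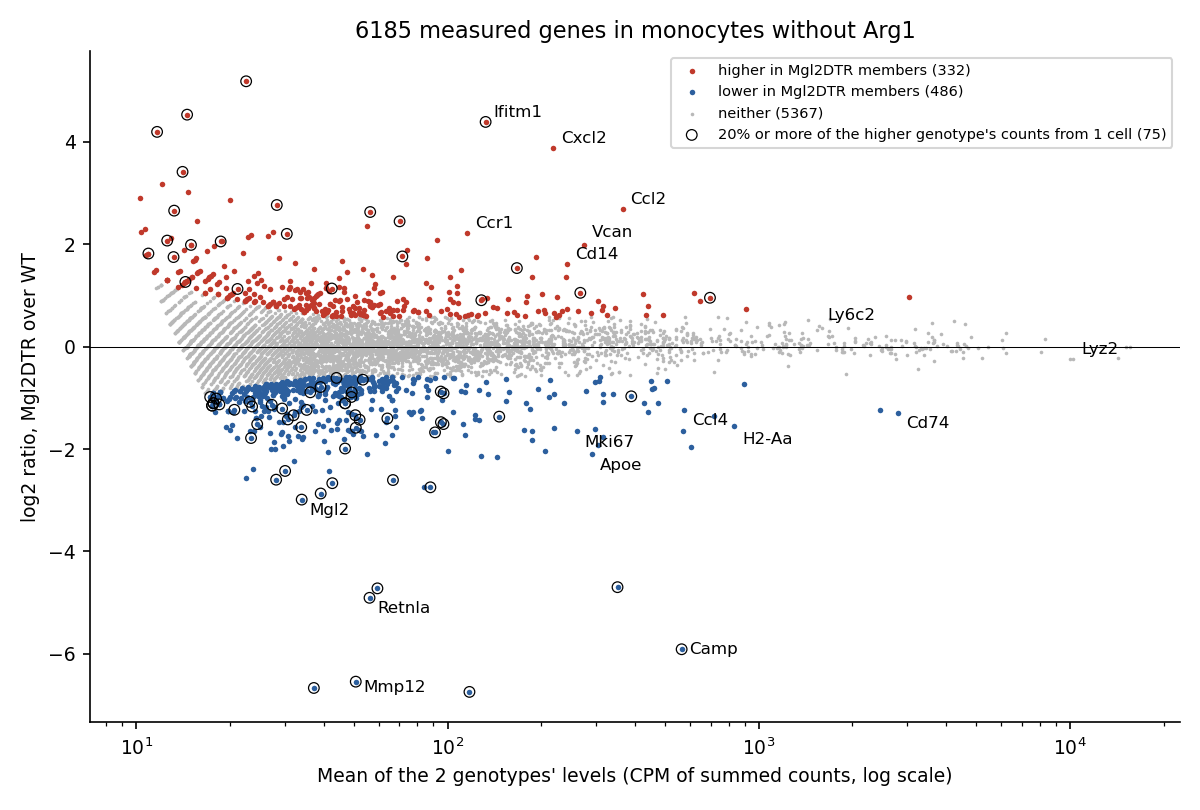
Each point is a measured gene of the monocytes without Arg1, with the mean of its Mgl2DTR and WT levels in CPM on a log axis and its log2 ratio of Mgl2DTR over WT. Red points are the 332 genes higher in Mgl2DTR, blue points the 486 lower, and circles mark the 75 called genes with at least 20% of the higher genotype's counts from 1 cell; the lowest points, such as Camp and Mmp12, are circled, whereas Ccl2, Cxcl2 and H2-Aa are not.

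The chemokines that were higher in Mgl2DTR members were 3 ligands of Ccr2, 1 of Cxcr2 and 1 of Ccr1, and those that were lower included Ccl3, Ccl4 and the Cxcr3 ligand Cxcl10. Of 12 measured chemokines, 5 were higher and 5 lower, with a median log2 ratio of 0.18. The median was 1.02 among members with at least 2 Ly6c2 UMIs, where 7 were higher and 4 lower, and -0.27 without dividing members, where 4 were higher and 6 lower. Ccl2, a ligand of Ccr2, was at 633 CPM in Mgl2DTR members and 97.8 CPM in WT members, a ratio of 6.48 (5.18 to 8.19). Per cell it ran from 0 to 109 UMIs with a median of 1 in Mgl2DTR, and from 0 to 10 with a median of 0 in WT. A Ccl2 UMI was found in 50.8% of Mgl2DTR members and 25.5% of WT members. The genotypes overlap at 0, and the 5 highest cells gave 24.3% of the Mgl2DTR counts and 45.7% of the WT counts. The upper quartile in Mgl2DTR was 6 UMIs.

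With each cell thinned to 2000 UMIs, Ccl2 was found in 35.5% of 256 Mgl2DTR members and 10.3% of 97 WT members, with 4 shallower Mgl2DTR members and 1 WT member left out. T-lineage cells, with medians of 4242.5 UMIs in Mgl2DTR and 5274.5 in WT, held it in 1.66% in Mgl2DTR and 0.895% in WT after thinning. The members thus stood above these cells in both genotypes. T-lineage cells also differed between genotypes in this direction, with Ccl2 at 23.4 CPM in Mgl2DTR and 3.95 CPM in WT. The source of these counts and its part in the members' ratio were not tested. The members' ratio also held among members with at least 2 Ly6c2 UMIs, at 5.73, and among members outside the cell cycle, at 6.23.

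Cxcl2, a ligand of the neutrophil receptor Cxcr2, was at 409 CPM in Mgl2DTR members and 27.8 CPM in WT members, a ratio of 14.7 (9.76 to 23.3). It held a UMI in 89 of 260 Mgl2DTR members and 11 of 98 WT members, and 38.1% of the Mgl2DTR counts came from 5 cells. T-lineage cells also differed for this gene, with 192 CPM in Mgl2DTR and 22.7 CPM in WT, although both genotypes went through the kit together. The source of these counts and its part in the members' ratio were not tested. The WT level lay near that of the WT T-lineage cells. Ccl9, a ligand of Ccr1, was just past the limit, at 268 CPM in Mgl2DTR and 179 CPM in WT, with an interval of the ratio of 1.26 to 1.80.

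Ccl7 and Ccl12, further ligands of Ccr2, rested on few cells. Ccl7 was at 111 CPM in Mgl2DTR and 32.6 CPM in WT, a ratio of 3.39 (2.29 to 5.23), and was found in 26 Mgl2DTR and 3 WT members, with 32.8% of the Mgl2DTR counts and 70.4% of the WT counts from 1 cell each. Ccl12 had 61 counts in Mgl2DTR and 1 count in WT, a ratio of 18.3 (3.17 to 735), and its level in Mgl2DTR members, 22.1 CPM, lay below the 58.9 CPM of T-lineage cells of that genotype.

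Ccl3 and Ccl4, chemokines of inflamed tissue, went the other way. Ccl4 was at 342 CPM in Mgl2DTR members and 809 CPM in WT members, a ratio of 0.42 (0.38 to 0.47), and was found in 43.8% of Mgl2DTR members and 48.0% of WT members. Of its counts, 28.1% in Mgl2DTR and 42.8% in WT came from 5 cells, and without the smallest hashtag margins its log2 ratio was -0.26 and short of the rule. T-lineage cells held Ccl4 at 132 CPM in Mgl2DTR and 229 CPM in WT. Ccl3 was at 151 CPM in Mgl2DTR and 323 CPM in WT, a ratio of 0.47 (0.40 to 0.55), with 19.95% of the Mgl2DTR counts and 41.79% of the WT counts from 5 cells. Cxcl10, an interferon-induced ligand of Cxcr3, was at 81.9 CPM in Mgl2DTR and 211 CPM in WT, from 28 Mgl2DTR and 13 WT members. Cxcl16 and Ccl5 were also lower, but both lay below their levels in T-lineage cells, and 51.7% of the WT counts of Ccl5 came from 1 cell.

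**Figure D2:**
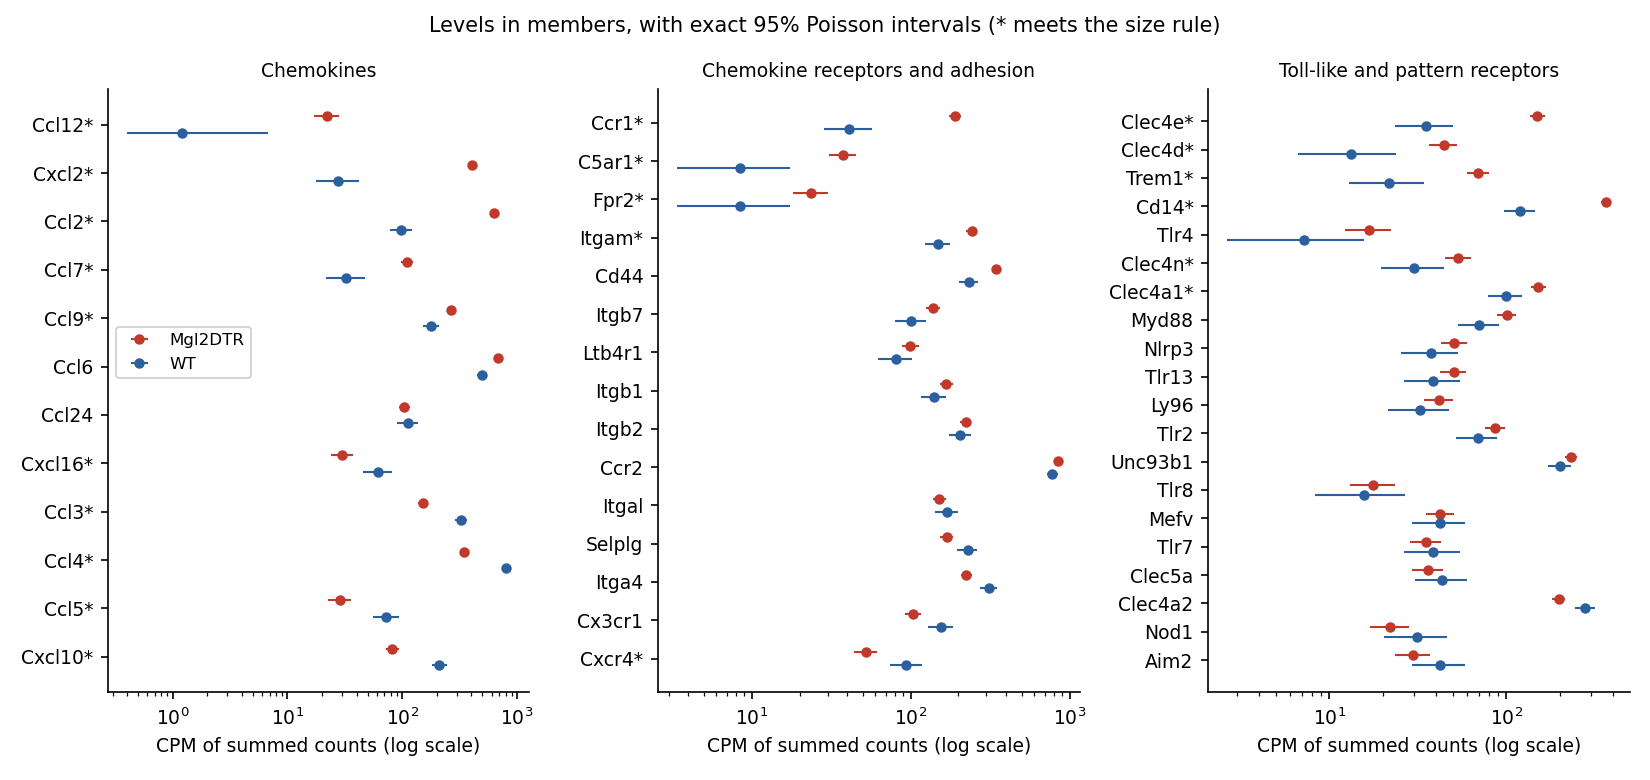
Levels of measured chemokines, chemokine receptors and adhesion genes, and Toll-like and pattern receptors in Mgl2DTR members (red, upper point) and WT members (blue, lower point), in CPM on a log axis with exact 95% Poisson intervals. Genes are ordered by their ratio, and stars mark those that met the size rule; Ccl2 stands at 633 CPM in Mgl2DTR and 97.8 CPM in WT, and Cxcl10 at 81.9 CPM in Mgl2DTR and 211 CPM in WT.

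Among the receptors of these chemokines, Ccr1 was higher in Mgl2DTR members, whereas Ccr2 did not meet the size rule. Cxcr2 was excluded by the choice of members. Of 17 measured chemokine receptor and adhesion genes, 6 were higher and 1 lower, with a median log2 ratio of 0.30. Ccr1, the receptor of Ccl3, Ccl7 and Ccl9, was at 190 CPM in Mgl2DTR members and 41.0 CPM in WT members, a ratio of 4.64 (3.28 to 6.77). It was found in 157 of 260 Mgl2DTR members and 22 of 98 WT members, with 0 to 16 UMIs per cell in Mgl2DTR and 0 to 4 in WT. C5ar1, the receptor for the complement fragment C5a, had 103 counts in Mgl2DTR and 7 in WT, a ratio of 4.42 (2.07 to 11.3).

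Others of this list followed in part. Itgam, the CD11b integrin chain used in the sort, was at 242 CPM in Mgl2DTR and 148 CPM in WT, a ratio of 1.63. Fpr2, a receptor for formylated peptides, was called higher on 65 counts in Mgl2DTR and 7 in WT. Cxcr4, which holds cells in the marrow, was the lower gene, at 53 CPM in Mgl2DTR and 94 CPM in WT. Ccr2 itself had a ratio of 1.08 (0.99 to 1.18), and Cx3cr1, the receptor of patrolling monocytes and macrophages, was at 103 CPM in Mgl2DTR and 154 CPM in WT, within the 1.5 limit.

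Receptors for microbes and dying cells were higher or within the limit. Of 20 measured Toll-like and pattern receptor genes, 6 were higher and 0 lower, with a median log2 ratio of 0.37. Cd14, the co-receptor for bacterial lipopolysaccharide, was at 365 CPM in Mgl2DTR members and 119 CPM in WT members, a ratio of 3.05 (2.48 to 3.79). Its median was 3 UMIs per cell in Mgl2DTR and 0 in WT, and it was found in 78.5% of Mgl2DTR members and 35.7% of WT members, or 46.9% in Mgl2DTR and 19.6% in WT after thinning. T-lineage cells held it in 1.66% in Mgl2DTR and 0.985% in WT after thinning.

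The C-type lectins Clec4e and Clec4d were also higher, whereas Clec4a3, given above, did not meet the rule. Clec4e (Mincle, which binds a nuclear protein of dead cells and mycobacterial glycolipid) was at 149 CPM in Mgl2DTR and 35 CPM in WT, a ratio of 4.27 (2.93 to 6.45). Clec4d, its partner, had a ratio of 3.33 (1.80 to 6.85). Trem1, a receptor that amplifies inflammatory signals, was at 69.6 CPM in Mgl2DTR and 21.7 CPM in WT. The Toll-like receptors themselves did not meet the rule: Tlr2 was at 87 CPM in Mgl2DTR and 69 CPM in WT, and Tlr7 at 35 CPM in Mgl2DTR and 39 CPM in WT.

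Fcgr1, the high-affinity receptor for IgG, was at 163 CPM in Mgl2DTR and 57.9 CPM in WT, a ratio of 2.81 (2.08 to 3.87), and was the only one of 6 Fc receptor genes to meet the rule. Maf, a transcription factor of macrophages, was also higher, at 82.6 CPM in Mgl2DTR and 31.4 CPM in WT, a ratio of 2.63 (1.75 to 4.12). Of 29 measured myeloid transcription factor genes, 2 were higher and 4 lower. Spi1 and Cebpb, which define the myeloid lineage, had ratios of 0.993 and 1.04.

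Of 14 measured genes of matrix, clotting and proteases, 5 were higher and 2 lower, with a median log2 ratio of 0.36. The lower ones, Mmp12 and Sparc, took at least 63.1% of their WT counts from 1 cell each. Thbs1, thrombospondin 1, was at 132 CPM in Mgl2DTR members and 39.8 CPM in WT members, a ratio of 3.30 (2.31 to 4.87). Mmp19, a matrix protease, had 81 counts in 51 Mgl2DTR members and 0 counts in WT. Its ratio was 8.11 when WT is set at 3 counts for the genotype, with an interval from 6.44 upward. Hif1a, the oxygen-sensing transcription factor, was at 149 CPM in Mgl2DTR and 65.2 CPM in WT, and Slc2a1, a glucose transporter, at 37.0 CPM in Mgl2DTR and 16.9 CPM in WT. Of 21 measured glycolysis and hypoxia genes, 3 were higher and 0 lower, with a median log2 ratio of 0.46. Hmox1, heme oxygenase 1, was at 56.2 CPM in Mgl2DTR and 25.3 CPM in WT. Msr1, a scavenger receptor, had a ratio of 2.11, and Socs3, a brake on cytokine signalling, of 1.90. Of 14 measured genes of resolution and immune restraint, 4 were higher and 0 lower, with a median log2 ratio of 0.31.

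Among all genes, Dmkn (dermokine), Eps8 (an actin regulator) and Tppp3 (a tubulin-binding protein) were also among the 12 most increased with ample counts. Dmkn was at 92.4 CPM in Mgl2DTR and 18.1 CPM in WT, Eps8 at 116 CPM in Mgl2DTR and 31.4 CPM in WT, and Tppp3 at 111 CPM in Mgl2DTR and 36.2 CPM in WT. Interferon-stimulated genes were mixed, with 7 of 25 higher and 4 lower. Oas3, a sensor of viral RNA, was at 79.4 CPM in Mgl2DTR and 27.8 CPM in WT, whereas Ifit3 was at 29.7 CPM in Mgl2DTR and 64.0 CPM in WT. Ifitm1 had a ratio of 21.0 (11.3 to 43.9), but 73.1% of its Mgl2DTR counts came from 5 of 260 members.

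Genes of antigen presentation by class II molecules were lower in Mgl2DTR members as a sum. The class II list had 9 measured genes, 6 of them lower and 1 higher, and a median log2 ratio of -1.29. H2-Aa was at 426 CPM in Mgl2DTR members and 1244 CPM in WT members, a ratio of 0.34 (0.32 to 0.37). H2-Eb1 was at 276 CPM in Mgl2DTR and 867 CPM in WT, and Cd74, the invariant chain, at 1626 CPM in Mgl2DTR and 3982 CPM in WT. Ciita, the master activator of class II genes, was at 18.1 CPM in Mgl2DTR and 56.7 CPM in WT. Lgmn, a lysosomal protease, was the higher gene, at 67 CPM in Mgl2DTR and 41 CPM in WT. Class I genes did not follow, with 0 of 12 higher and 1 lower and a median log2 ratio of 0.02.

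The 120 bases before the start of 2 class II genes that moved together are printed from RefSeq on GRCm38.p6, on the gene's strand, because both hold the motif CTGATTGG, in capitals, the core of the Y box bound by NF-Y. It ended 44 bases before the start in H2-Aa and 55 in H2-Eb1, and was searched on both strands.
H2-Aa, chr17:34287824-34287943, minus strand: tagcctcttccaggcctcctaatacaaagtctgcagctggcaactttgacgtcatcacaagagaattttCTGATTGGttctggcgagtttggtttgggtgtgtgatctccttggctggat
H2-Eb1, chr17:34305747-34305866, plus strand: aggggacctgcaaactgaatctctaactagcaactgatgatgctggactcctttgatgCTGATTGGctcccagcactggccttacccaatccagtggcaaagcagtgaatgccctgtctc
This motif stood in 2.84% of 32851 such stretches. For the chemokines, the NF-kB motif was searched by name and the AP-1 motif as TGANTCA, on both strands.
Cxcl2, chr5:90903779-90903898, plus strand: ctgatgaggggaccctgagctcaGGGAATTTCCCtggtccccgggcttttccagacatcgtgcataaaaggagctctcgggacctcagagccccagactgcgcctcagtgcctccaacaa
Cxcl10, chr5:92348890-92349009, minus strand: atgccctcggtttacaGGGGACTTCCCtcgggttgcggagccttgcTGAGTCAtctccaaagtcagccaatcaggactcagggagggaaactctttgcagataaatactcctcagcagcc
In Cxcl2 the capitals are NF-kB matches that overlap on opposite strands, and in Cxcl10 overlapping NF-kB matches and then an AP-1 match. The NF-kB motif stood in 3.65% of all such stretches and the AP-1 motif in 3.41%. Cxcl2 was higher and Cxcl10 lower in Mgl2DTR members, so both directions were found beside this motif. Ccl3, lower like Cxcl10, held neither motif in this window. A match is a description of letters only.

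Much of the class II difference lay in few cells. Per cell, the sum of H2-Aa, H2-Ab1, H2-Eb1 and Cd74 had a median of 13 UMIs in both genotypes, although the Mgl2DTR members were deeper, and an upper quartile of 19 UMIs in Mgl2DTR and 26.75 in WT. After thinning, the lower quartile was 1 UMI in Mgl2DTR and 2 in WT, the median 3 in Mgl2DTR and 4 in WT, and the upper quartile 4 in Mgl2DTR and 10 in WT. The 5 highest cells held 21.2% of these UMIs in Mgl2DTR and 43.0% in WT. Among members with at least 2 Ly6c2 UMIs, 245 in Mgl2DTR and 70 in WT, the sum was 2237 CPM in Mgl2DTR (2180 to 2296) and 2630 CPM in WT (2506 to 2758). Among members with fewer Ly6c2 UMIs, 15 in Mgl2DTR and 28 in WT, it was 10153 CPM in Mgl2DTR and 23091 CPM in WT. These few cells held 23.3% of all class II UMIs of Mgl2DTR members and 71.2% of those of WT members.

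Within members of at least 2 Ly6c2 UMIs, the ratio of H2-Aa was 0.78 and the class II list had a median log2 ratio of -0.22, with 1 gene higher and 1 lower. The dendritic cell list likewise had a median of -0.28 there, against -1.35 over all members, where 8 of 10 genes were lower. T-lineage cells held more H2-Aa than the members as a whole, 2646 CPM in Mgl2DTR and 4239 CPM in WT. Shares of members with class II UMIs are therefore not read as expression.

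The WT members with under 2 Ly6c2 UMIs carried further genes of antigen-presenting and alternatively activated cells. Mgl2, the targeted gene, was at 258 CPM in these 28 WT cells, in 11 of them, against 69.3 CPM in 2 of the 15 such Mgl2DTR cells. Over all members Mgl2 was at 7.61 CPM in Mgl2DTR and 60.3 CPM in WT, a ratio of 0.126 (0.072 to 0.214), which matches the labels in direction. T-lineage cells held Mgl2 at 16.5 CPM in Mgl2DTR and 83.1 CPM in WT, above the level over all members in both genotypes. Of these T-lineage cells, 17.7% in Mgl2DTR and 31.8% in WT held at least 20 class II UMIs after thinning. They are therefore no clean background for genes of antigen-presenting cells, and the source of their Mgl2 counts was not tested. Retnla, a secreted product of cells exposed to IL-4, was at 483 CPM over these 28 WT cells, with UMIs in 6 of them. Apoe, apolipoprotein E, was at 110 CPM in Mgl2DTR members and 472 CPM in WT members, where T-lineage cells were at 639 CPM in Mgl2DTR and 292 CPM in WT. Among members with under 2 Ly6c2 UMIs it was at 104 CPM in Mgl2DTR and 774 CPM in WT.

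Ly6c2 separated the genotypes per cell more than in the sum. At least 2 UMIs were found in 94.2% of Mgl2DTR members (90.7 to 96.7%) and 71.4% of WT members (61.4 to 80.1%), or 75% in Mgl2DTR and 47.4% in WT after thinning. The median was 16 UMIs in Mgl2DTR and 5 in WT, or 3 in Mgl2DTR and 1 in WT after thinning. T-lineage cells reached 2 UMIs in 13.1% in Mgl2DTR and 5.33% in WT after thinning. Of 18 measured classical monocyte genes, 4 were higher and 1 lower, with Hp at 833 CPM in Mgl2DTR and 406 CPM in WT. Of 11 measured genes of non-classical monocytes, which patrol vessels, 1 was higher and 3 lower. Spn, CD43, was at 43.1 CPM in Mgl2DTR and 89.3 CPM in WT, and Adgre4 at 17 CPM in Mgl2DTR and 43.5 CPM in WT. Treml4 and Ace, further genes of this list, did not meet the rule, with Treml4 at 25 CPM in Mgl2DTR and 21 CPM in WT and Ace at 33 CPM in Mgl2DTR and 47 CPM in WT.

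**Figure D3:**
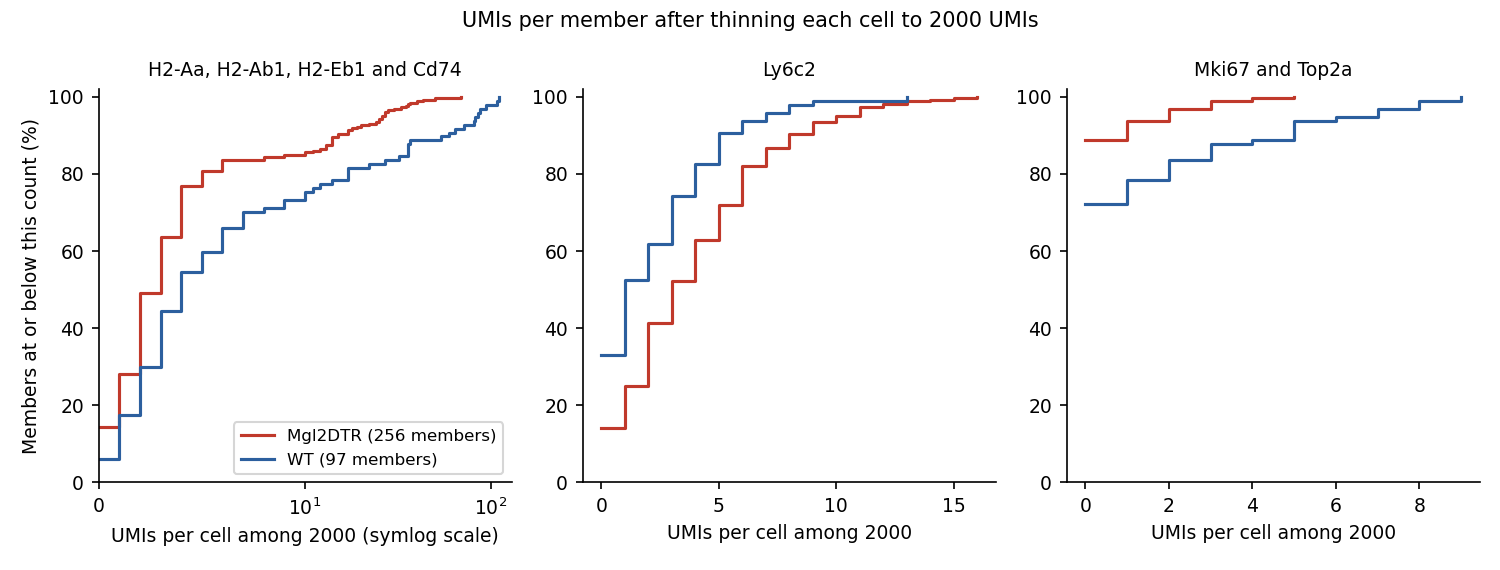
Cumulative share of members, in percent, at or below a given number of UMIs per cell after thinning each cell to 2000 UMIs, for the class II sum, Ly6c2, and Mki67 with Top2a, in 256 Mgl2DTR members (red) and 97 WT members (blue). The class II curves lie close at low counts, with medians of 3 in Mgl2DTR and 4 in WT, and WT has the longer upper tail, up to 111 UMIs; the Ly6c2 curve lies to the right in Mgl2DTR, and the curve of the cell cycle genes lies to the right in WT.

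Dividing cells made up less of the Mgl2DTR members. Members with at least 2 UMIs of Mki67 and Top2a, genes of dividing cells, were 29 of 260 in Mgl2DTR, 11.2% (7.60 to 15.6%), and 25 of 98 in WT, 25.5% (17.2 to 35.3%). After thinning they were 6.25% in Mgl2DTR and 21.6% in WT. Of 20 measured cell cycle genes, 0 were higher and 13 lower in Mgl2DTR members, with a median log2 ratio of -1.27. Mki67 was at 125 CPM in Mgl2DTR and 395 CPM in WT, Top2a at 143 CPM in Mgl2DTR and 486 CPM in WT, and Birc5, survivin, at 82.6 CPM in Mgl2DTR and 292 CPM in WT. Pcna, Mcm5 and Mcm6, genes of DNA replication, did not meet the rule, with ratios of 1.13, 1.03 and 1.18. Of the genes of core histones, which package new DNA, Hist1h2ab had a ratio of 0.229, Hist1h2ae of 0.257 and Hist1h4d of 0.266, all lower in Mgl2DTR members.

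Without these cells, which were picked by genes of that list, the cell cycle list no longer differed in this direction, with a median log2 ratio of 0.17 over 6 measured genes. Cycling members carried genes of early myeloid cells. Mpo, Elane, Prtn3 and Ctsg, granule proteins of myeloid progenitors, summed to at least 5 UMIs in 16 of the 29 Mgl2DTR and 11 of the 25 WT cycling members. Elane was at 3537 CPM in the cycling Mgl2DTR members and 8.19 CPM in the others, and at 1549 CPM in the cycling WT members and 2.28 CPM in the others. These granule genes thus lay mostly in dividing members in both genotypes, and 1 cell held 28.6 to 43.9% of each gene's counts in Mgl2DTR and 57.7 to 88.9% in WT. Irf8, a transcription factor of monocyte and dendritic cell progenitors, was at 140 CPM in Mgl2DTR members and 250 CPM in WT members, below the 407 CPM in Mgl2DTR and 465 CPM in WT of T-lineage cells.

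**Figure D4:**
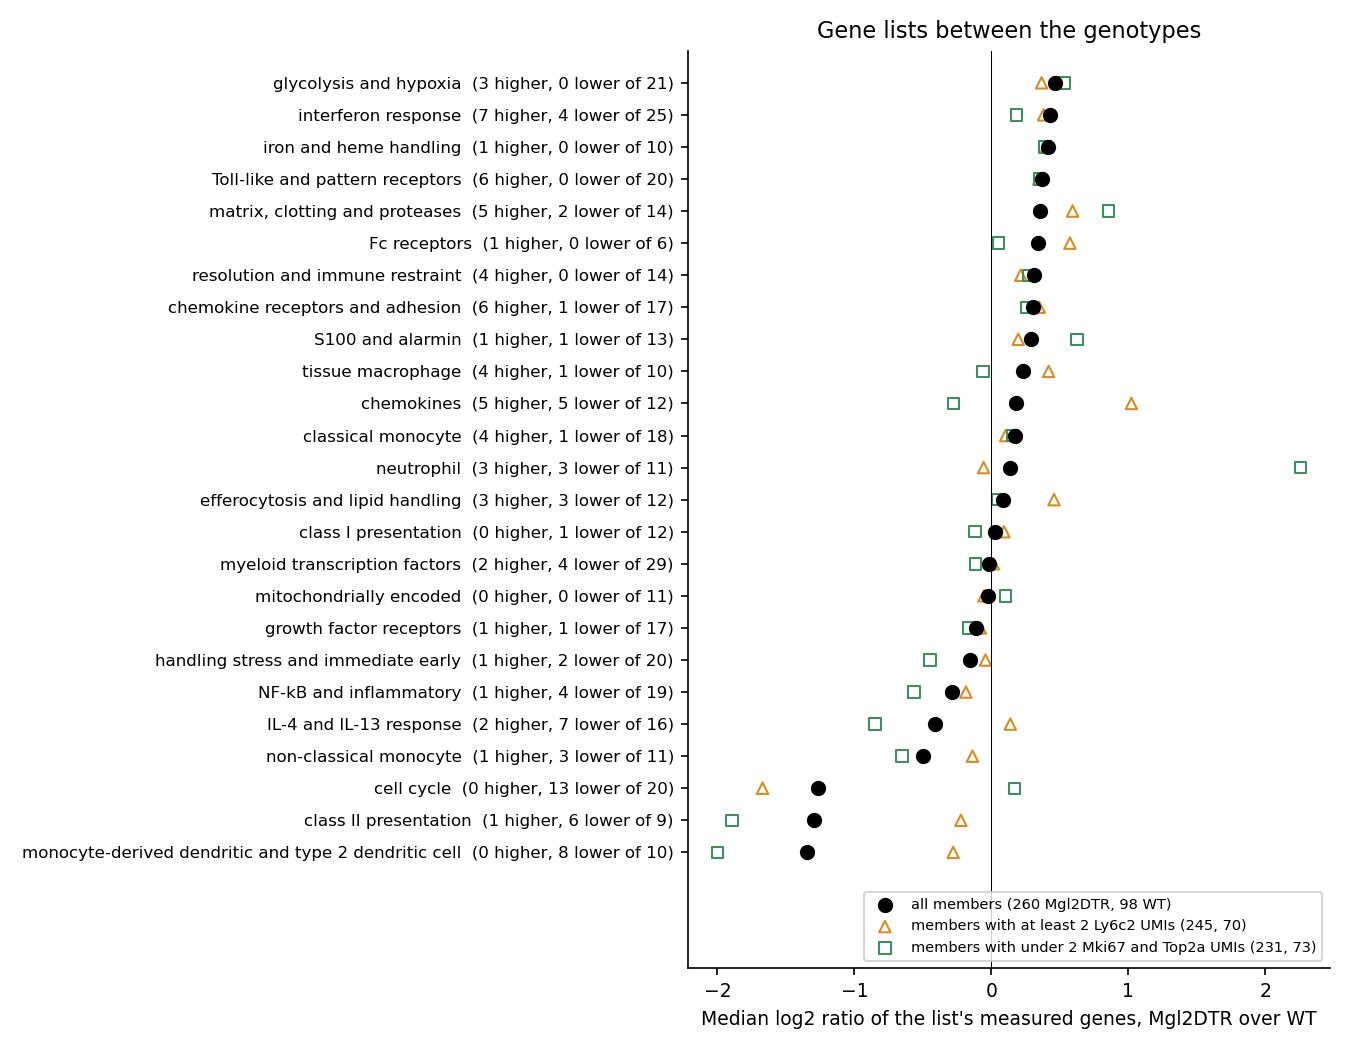
Median log2 ratio of Mgl2DTR over WT of each gene list with at least 5 measured genes, over all members (black circles), members with at least 2 Ly6c2 UMIs (open triangles) and members with under 2 UMIs of Mki67 and Top2a (open squares), with the counts over all members beside each name. The class II and dendritic cell lists move toward 0 among members with Ly6c2, and the cell cycle list among members outside the cycle, while the pattern receptor list stays between 0.35 and 0.37.

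Ratios of receptor and chemokine genes were also taken within these subsets. Among members with at least 2 Ly6c2 UMIs the ratio was 3.77 for Ccr1, 2.75 for Cd14, 3.51 for Clec4e, 15.5 for Cxcl2 and 10.7 (5.13 to 26.9) for Ccl7. Among members outside the cell cycle it was 7.24 for Ccr1, 3.36 for Cd14, 3.72 for Clec4e, 13.4 for Cxcl2 and 2.32 (1.56 to 3.57) for Ccl7. Among the 29 Mgl2DTR and 25 WT cycling members Ccl2 had a ratio of 2.74 and Cd14 of 1.72, while Ccr1 had 1.28 and did not meet the rule.

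Several of the lowest ratios came from single cells. Camp, a neutrophil granule gene, was at 18.5 CPM in Mgl2DTR and 1112 CPM in WT, but 98.7% of the WT counts came from 1 of 98 members, as did 96.8% of those of Ngp. Gzma was found in 1 WT member, and Col1a1 and Col3a1 in 1 member of each genotype. Mmp12, a macrophage elastase, had 0 counts in Mgl2DTR and 84 counts in 3 WT members. These values describe those cells and not the members as a group.

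The C1q macrophages of the same pool showed part of the same differences. There Ccl2 was at 356 CPM in Mgl2DTR and 64.6 CPM in WT, and Cxcl2 at 350 CPM in Mgl2DTR macrophages and 67.6 CPM in WT macrophages. Cd14 was at 109 CPM in Mgl2DTR macrophages and 59.2 CPM in WT macrophages, a ratio of 1.85, against 3.05 in the members. Fcgr1 was at 139 CPM in Mgl2DTR macrophages and 118 CPM in WT macrophages, a ratio of 1.18, against 2.81 in the members. Other genes had ratios as large or larger in the macrophages. Hp had 6.65 there against 2.06 in the members, Itgam 4.21 against 1.63, and Clec4d 3.85 against 3.33. Clec4e had 3.38 in the macrophages and 4.27 in the members. H2-Aa was at 4849 CPM in Mgl2DTR macrophages and 10225 CPM in WT macrophages. The difference between the kinds of cell was not tested.

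Eif2s3y, a gene of the Y chromosome, was at 43.1 CPM in Mgl2DTR members and 19.3 CPM in WT members, a ratio of 2.23 (1.32 to 4.03), and had the same ratio (1.55 to 3.21) in the C1q macrophages. Ddx3y, also on the Y chromosome, was at 44.6 CPM in Mgl2DTR members and 53.1 CPM in WT members and did not meet the rule. The labels do not give the sex of the mice, and its part in the results was not tested.

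Within Mgl2DTR, the 260 members were set beside the 54 monocytes that held Arg1, which no WT group could match because WT had 1 such cell. Of 5817 measured genes, 559 were higher in the members, 9.61%, and 607 were lower, 10.4%. Members had a median of 9307 UMIs and the Arg1 group 7975. Arg1 was found in 18 of 35 such monocytes under 5000 UMIs, 15 of 156 from 5000 to 10000, 19 of 108 from 10000 to 20000 and 2 of 15 above, so it was most frequent below 5000 UMIs.

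Genes of dividing cells were higher in the members, and so were parts of the lists of neutrophils and of both kinds of monocyte. Of 20 measured cell cycle genes, 16 were higher in the members and 0 lower, with Mki67 at 125 CPM in members and 6.70 CPM in the Arg1 group. Cx3cr1 was at 103 CPM in members and 11.2 CPM in the Arg1 group, a ratio of 9.25 (3.92 to 28.7). Ly6c2 was at 1788 CPM in members and 862 CPM in the Arg1 group. Of 18 classical monocyte genes, 7 were higher and 2 lower, with a median log2 ratio of 0.37. Of 10 neutrophil genes, 7 were higher and 1 lower (median 1.25), and of 10 non-classical monocyte genes, 5 were higher and 0 lower (median 0.71).

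The Arg1 group held more chemokine and macrophage transcripts. Of 14 measured chemokines, 1 was higher in the members and 10 were lower, with a median log2 ratio of -2.58. Ccl2 was at 633 CPM in members and 3703 CPM in the Arg1 group, and Cxcl2 at 409 CPM in members and 2502 CPM in the Arg1 group. Of 11 tissue macrophage genes, 1 was higher and 9 were lower in members. Mrc1, the mannose receptor, was at 24.6 CPM in members and 527 CPM in the Arg1 group, a ratio of 0.047 (0.035 to 0.062), and Spp1, osteopontin, at 50 CPM in members and 317 CPM in the Arg1 group. Of 21 glycolysis and hypoxia genes, 0 were higher and 11 lower in members. Of 9 class II genes 0 were higher and 1 lower, with H2-Aa at 426 CPM in members and 422 CPM in the Arg1 group.

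**Figure D5:**
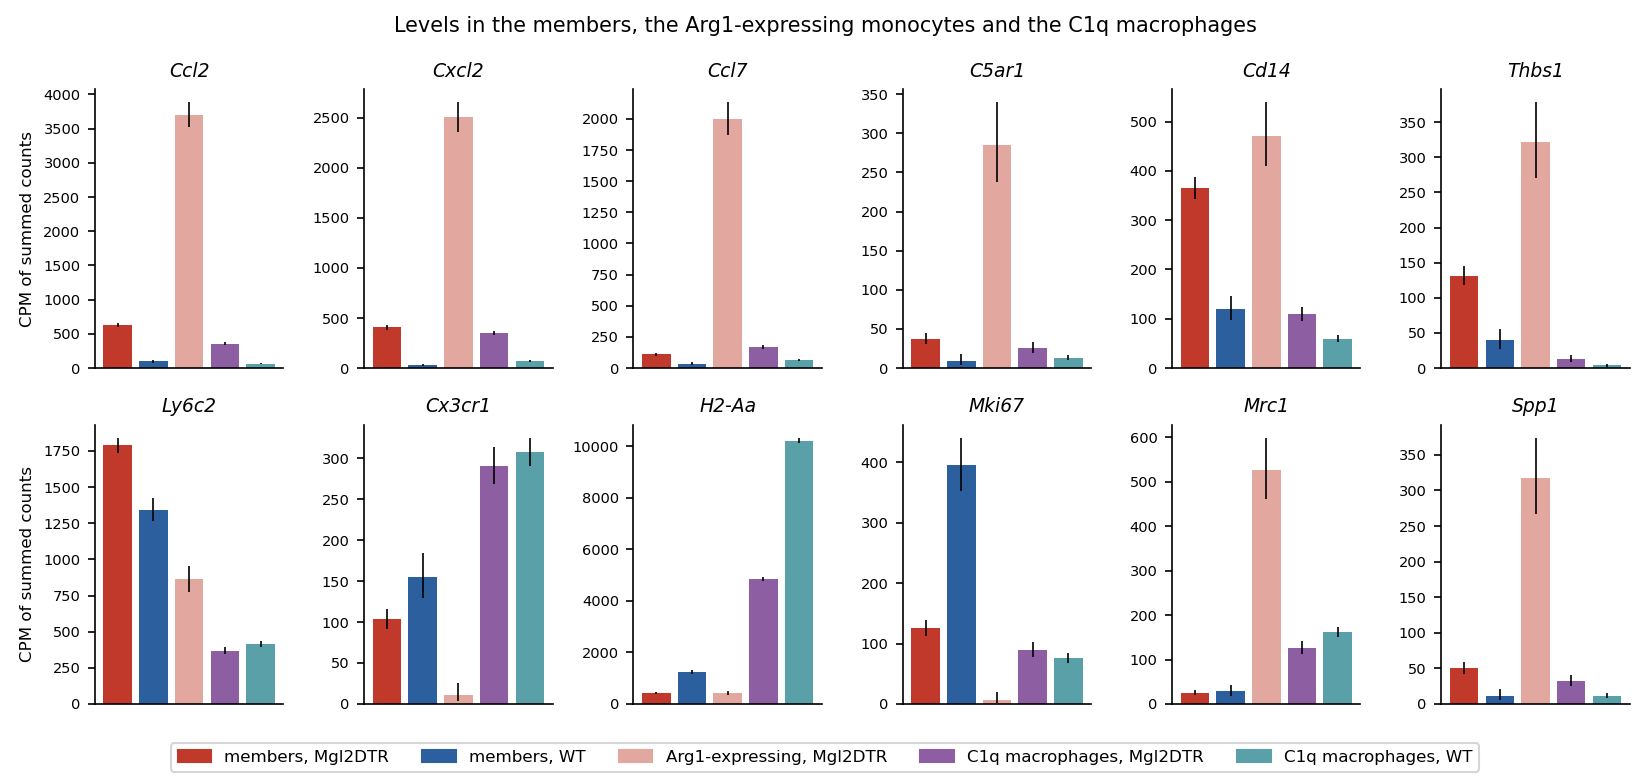
Levels of 12 genes in CPM with exact 95% Poisson intervals in members of Mgl2DTR and WT, Arg1-expressing monocytes of Mgl2DTR, and C1q macrophages of Mgl2DTR and WT; each panel has its own axis from 0. For Ccl2, Cxcl2, Cd14 and Thbs1 the Mgl2DTR members lie between the WT members and the Arg1-expressing monocytes, while Ly6c2 is highest in the members and H2-Aa in the macrophages.

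Several genes that were higher in Mgl2DTR members than in WT members were higher still in the Arg1 group, and both comparisons share the Mgl2DTR members. Thbs1 was at 132 CPM in Mgl2DTR members, 39.8 CPM in WT members and 321 CPM in the Arg1 group. Clec4e was at 149 CPM in Mgl2DTR members, 35 CPM in WT members and 275 CPM in the Arg1 group. Hp, in contrast, was at 833 CPM in Mgl2DTR members, 406 CPM in WT members and 420 CPM in the Arg1 group.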

How the data were processed

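The submitters' processing notes name Cell Ranger (version 6.0.0), Seurat (version 4.0.4) and the build mm10. Which gene annotation was used is not given in these sources. The deposited gene and hashtag tables hold raw counts, whole UMIs per cell. The deposited annotation gives hashtag calls and a score, the hashtag margin. Its UMI totals equalled the gene tables in all 28926 cells over 20451 genes.

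Members, comparison cells and gene lists were chosen with earlier results of these data known. Counts were summed per genotype over the members, and CPM, ratios and shares were computed with scipy 1.17.1, pandas 2.3.3 and numpy 2.4.6 under Python 3.11.15, with exact Poisson, conditional binomial and Clopper-Pearson 95% intervals. These cover counting error only. A gene was measured at 50 summed counts, and 0 counts were set at 3 for the genotype. Genes of the member rule were left out of the list counts. T-lineage comparison cells held at least 5 Cd3 UMIs and no F13a1, Vcan or Fn1. Thinning drew 2000 UMIs per cell once. The comparison was also run on simulated Poisson counts. These hold no variation between cells, so they cannot show how the calls behave with it. No doublet caller was run. The rule limited genes of some other lineages, but not those of B cells, NK cells, stroma or neutrophil granules. An alternative removed members with other lineages' UMIs. Both genotypes shared 1 pooled library with no named replicates, so no count model or test was used.

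Named were the 6 markers, Mgl2, of every list up to 4 called genes with the largest change, and over all genes the 12 highest and 12 lowest called genes with at least 200 counts and under 20% from 1 cell. The 12 highest and lowest were also taken against the Arg1 group, and the 15 genes that mark members had at least 200 counts in each genotype's members. Alternatives changed the marker sum, hashtag margin, depth, count minimum, ratio, scaling, thinning and the members used. Other list genes are named as examples chosen after their values were seen. Figures used matplotlib 3.10.9. A few genes counted in the lists are not reported here.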

Additional observations from a re-analysis of the deposited data

Results flagged for a closer look

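Cells outside the comparisons also met the gene conditions of the members. Of the 9829 cells with 2 hashtags, 88 did so (0.895%, interval 0.719 to 1.10%), with Ly6c2 at 1159 CPM, and of the 78 cells with no hashtag, 6 did (7.69%, 2.88 to 16.0%). Their genotype is not known, and they were used in no comparison.

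A set of 7 named genes went in opposite directions in the members and the C1q macrophages, by the size rule in each; the difference itself was not tested. Lpl had a ratio of Mgl2DTR over WT of 0.532 in the members and 1.52 in the macrophages, with 186 counts in Mgl2DTR members and 105 in WT members, and 1 cell gave 40% of the WT counts. Among members with at least 2 Ly6c2 UMIs it turned round, to 4.67 (2.40 to 10.4). Camp had a ratio of 0.0166 in the members and 2.93 in the macrophages. Ltf had 0.0379 and 3.22, and Ngp 0.0385 and 4.38. Col3a1 had 0.137 in the members and 130 (22.5 to 5194) in the macrophages, where WT was at 0.235 CPM. Sparc had 0.149 in the members and 44.5 in the macrophages (interval from 35.2 upward), where WT had 0 counts set at 3. Mmp12 had 0.0107 in the members, where Mgl2DTR had 0 counts set at 3, and 1.61 in the macrophages. In the members, 1 WT cell gave at least 95.8% of the WT counts of Camp, Ltf, Ngp, Col3a1 and Sparc, and 63.1% of those of Mmp12. Among Mgl2DTR members, 1 cell gave 100% of the Col3a1 counts and 95.2% of the Sparc counts. Such shares are not given for the macrophages, so their ratios may also rest on few cells.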

How the results depend on the processing

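The ratio of shares of members kept its direction under every alternative run. It was 5.36 with a marker sum of at least 6, 10.5 without the 25% of each genotype's cells with the smallest hashtag margin, which leaves 54 Mgl2DTR and 8 WT members, and 3.21 over cells without Cd3 UMIs, against 4.14 as reported. The called genes, 818 in all with 332 higher and 486 lower, numbered 498 (382 higher, 116 lower) without the smallest hashtag margins, 225 (153, 72) among members with no Ly6c2 UMI, 237 (136, 101) at a minimum of 200 counts, 356 (155, 201) at a ratio of at least 2, and 219 (122, 97) with each cell thinned to 2000 UMIs. Without cycling members, an alternative added after seeing the data, 308 genes were lower. The called genes were often not the same ones. Of the 332 higher and 486 lower genes, 69 and 26 kept their call without the smallest hashtag margins. After thinning 61 and 53 kept it, and without cycling members 164 and 183. Lists with a median log2 ratio of at least 0.5 either way numbered 3 as reported. They numbered 14 without the smallest margins, 5 without members holding other lineages' UMIs, 6 with no Ly6c2 UMI, 5 at 200 counts and 5 with each cell weighing the same. In alternatives added after seeing the data they numbered 9 without cycling members, 5 without members rich in granule or collagen genes or short of Ly6c2, Ccr2 and Clec4a3, and 7 without each gene's top cell.

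The 8 WT members left without the smallest margins reversed 14 named genes and the cell cycle list, whose median log2 ratio became 2.31. The log2 ratios became 0.30 for Apoe, 1.09 for Irf8, 0.56 for Ccl3, 1.88 for Cxcl10, 1.30 for Sparc, 1.36 for Hmgb1, 1.17 for Birc5, 4.40 for Top2a, 2.31 for Mki67, 3.52 for Ube2c, -1.16 for Eps8, 2.68 for H2afx, 2.91 for Hist1h2ae and 2.45 for Hist1h4d. Among the 11 Mgl2DTR and 18 WT members with no Ly6c2 UMI, they became 4.08 for the cell cycle list, 1.53 for Hmgb1, 6.05 for Top2a, 5.69 for Mki67 and 3.33 for Hist1h2ae. Without cycling members the cell cycle list was at 0.17 and Ube2c at 2.05. Lpl was at 2.22 with at least 2 Ly6c2 UMIs. Without each gene's top cell Camp was at 0.14 and Ngp at 0.12, and Ngp was at 0.13 with a marker sum of at least 6. Their causes were not tested.

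Ccl2, Cxcl2, Ccr1, Cd14 and Clec4e kept their call in each of the 14 alternatives that gave them a value, with log2 ratios of 2.52 to 3.17, 3.50 to 4.52, 1.80 to 2.86, 1.36 to 2.40 and 1.60 to 2.19 in this order. The planned repeat within each deposited table was not run, because each table holds 1 genotype of single-hashtag cells. No paired analysis was possible because both genotypes share 1 library and no replicates are named. The 98 WT members and their 828524 UMIs limit every ratio.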
